A study of Rattus norvegicus with 9 samples.

Results

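The insulin-like growth factor (IGF) genes of the rat knee were described across synovium and regenerating meniscal tissue. They were chosen by name, as the rows of the deposited table whose symbol is that of an IGF ligand (Igf1 or Igf2), an IGF receptor (Igf1r or Igf2r) or a binding protein (Igfbp2 to Igfbp7). All 10 were found among the 17602 genes of the table, and all 10 were among the 16512 genes tested, those with a TPM above 0 in 3 or more libraries. TPM, the share of transcripts scaled to a fixed total, is a level scaled by transcript length, so that levels of different genes can be set side by side within a library.

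The rats were wild-type (WT) male Lewis animals 10 to 12 weeks of age. The Intact group was synovium, the lining of the joint, from around the medial meniscus of knees with no surgery. For the Sham group, this synovium was collected 1 week after surgeons had opened and closed the joint capsule. The pMx group was regenerating tissue taken 1 week after partial medial meniscectomy, the removal of the anterior part of the medial meniscus, with the neighboring synovium trimmed away. pMx and Sham therefore differed in both the operation and the tissue, which cannot be told apart. The RNA integrity numbers that accompany the study also separated the groups, lowest in Intact and highest in pMx with no overlap. Their part in the results was not tested. Each group had 3 libraries labeled as biological replicates, and neither the labels nor the methods say how many knees or rats gave each library.

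IGF1 and IGF2 are small secreted proteins related to insulin that drive growth and matrix synthesis in connective tissue and cartilage. Both signal through the IGF1 receptor, a tyrosine kinase. The IGF2 receptor is a sorting receptor instead. It carries lysosomal enzymes tagged with mannose 6-phosphate and takes IGF2 into the cell for breakdown. Binding proteins hold IGFs in body fluids and in the matrix, and proteases that cut them set the IGFs free.

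The libraries listed 15644 to 16125 genes above 0 TPM. Depth is unknown, since TPM keeps no read numbers, so the errors given here are the spread between the 3 replicates. Intact replicate 3 stood apart. It correlated across genes with the other Intact libraries at 0.954 to 0.96, against 0.987 to 0.996 for all other pairs within a group. Its 8 skeletal muscle markers summed to 40049.2 TPM, against 56.8 to 2696.8 TPM in the other libraries. All 8 synovial fibroblast markers (Pdgfra, Col1a1, Col1a2, Dcn, Thy1, Pdpn, Prg4 and Has1) were listed, and each reached 1 TPM in at least 1 library. Their sum was 8926.2 to 12532.6 TPM in Intact, 14303.1 to 15920.7 TPM in Sham and 32663.4 to 36505.5 TPM in pMx. Most of the pMx sum, 35042 TPM on average, came from Col1a1 and Col1a2, with means of 15668.8 and 14117.8 TPM. Not all members moved with the sum, as Dcn was at 4683 ± 443 TPM in Sham and 2441.3 ± 232 TPM in pMx (SD, n = 3 each).

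In regenerating tissue compared with Sham synovium, the data show lower Igfbp5, Igfbp6 and Igf2 and higher Igf2r and Igfbp3. Differences were tested on log2(TPM + 1) with limma over all genes, and a gene is said to rise or fall where the Benjamini-Hochberg adjusted p was below 0.05. By that test 5 of the 10 genes differed between pMx and Sham, 2 higher and 3 lower, against 36.6% of all genes tested (17.7% higher and 18.9% lower). A differentially expressed gene (DEG) also had a log2 fold change beyond 1 in size. Of the 10, 4 were DEGs, 1 higher and 3 lower, against 8.21% of all genes tested (3.36% higher and 4.85% lower). The groups did not overlap for 7 of the 10 genes, 2 higher and 5 lower, against 56.1% of all genes tested (27.0% higher and 29.0% lower). In Sham versus Intact, 2 of the 10 differed, Igf1 and Igf2r, both higher, against 12.7% of all genes (6.73% higher and 5.97% lower). None was a DEG there, against 1.96% of all genes (1.42% higher and 0.533% lower). An unadjusted p below 0.05 from limma was found for 6 of the 10, and for at least 4745 of the 16512 genes tested. The Sham and Intact libraries did not overlap for 5 of the 10, 3 higher and 2 lower, against 30.6% of all genes (14.2% higher and 16.4% lower). In pMx versus Intact, 9 of the 10 differed, 3 higher and 6 lower, against 50.6% of all genes (23.4% higher and 27.1% lower). Here 4 were DEGs, 2 in each direction, against 14.3% of all genes (6.40% higher and 7.89% lower), and 8 did not overlap, 3 higher and 5 lower, against 57.5% (26.9% higher and 30.6% lower). The 3 comparisons share groups and are therefore not separate evidence.

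**Figure D1:**
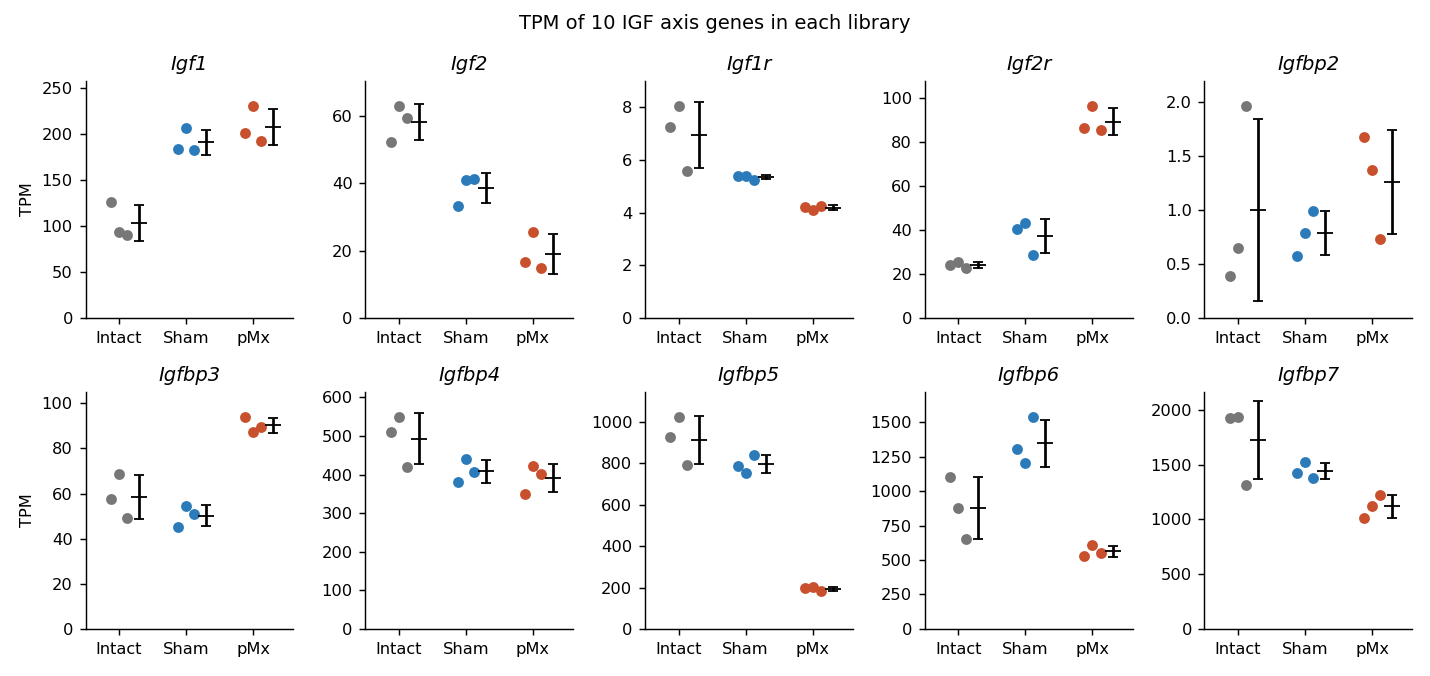
TPM (y axis, linear and starting at 0, with its own scale in each panel) of the 10 genes in the 3 libraries of each group (points, replicates 1 to 3 from left to right), with the group mean and SD as a bar to the right. Igfbp5 lies at 181.7 to 201.6 TPM in pMx, below every Sham and Intact library, and Igf2r at 85.53 to 96.37 TPM, above every one.

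The ligand Igf1 (gene identifier 24482) was at 126.53, 94.02 and 90.36 TPM in Intact, at 184.07, 206.76 and 182.82 TPM in Sham and at 200.95, 230.28 and 192.87 TPM in pMx. The Sham and pMx libraries overlapped, and all of them were above the highest Intact library. Igf1 rose in Sham versus Intact by a log2 fold change of 0.89 (limma SE 0.13 and adjusted p = 0.00625), from 104 ± 19.9 to 191 ± 13.5 TPM (SD, n = 3 each). Between pMx and Sham the log2 difference was 0.12, with a 95% interval from -0.18 to 0.42 (adjusted p = 0.523 from limma). Igf1 rose in pMx versus Intact by 1.01 on the log2 scale (adjusted p = 2.68e-04 from limma). It met the DEG threshold there in 16 of 19 alternative analyses, and fell short without Intact replicate 2 or 3 or pMx replicate 2 (0.92 to 0.95), while the adjusted p stayed below 0.05 in all 19.

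The ligand Igf2 (gene identifier 24483) stepped down instead. It was at 52.32, 62.86 and 59.53 TPM in Intact, at 33.36, 41.15 and 41.18 TPM in Sham and at 16.73, 25.69 and 14.81 TPM in pMx. None of the 3 groups overlapped with another. The fall in pMx versus Sham had a log2 fold change of -1.01 (limma SE 0.19 and adjusted p = 0.0032), from 38.6 ± 4.51 to 19.1 ± 5.81 TPM (SD, n = 3 each). Its size lay close to the DEG threshold of 1, which it met in 14 of 19 alternative analyses, while the adjusted p stayed below 0.05 in all 19. The log2 difference of -0.58 in Sham versus Intact missed the test (95% interval -1.01 to -0.16, adjusted p = 0.0749 from limma). Igf2 fell in pMx versus Intact by 1.59 on the log2 scale (adjusted p = 1.52e-04 from limma).

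In pMx versus Intact, Igf1 rose and Igf2 fell, while in pMx versus Sham only Igf2 passed the test. The ratio of Igf1 to Igf2 TPM was 2.42, 1.5 and 1.52 in the Intact libraries. It was 5.52, 5.02 and 4.44 in the Sham libraries and 12, 8.96 and 13 in the pMx libraries. The summed TPM of both ligands was 150 to 179 in Intact, 217 to 248 in Sham and 208 to 256 in pMx. The sum thus overlapped between Sham and pMx while its makeup did not.

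Of the receptors, Igf2r (gene identifier 25151) was at 24, 25.43 and 22.71 TPM in Intact, at 40.51, 43.17 and 28.61 TPM in Sham and at 86.61, 96.37 and 85.53 TPM in pMx. The groups did not overlap, and Sham replicate 3 was the Sham library nearest to Intact. Igf2r rose in pMx versus Sham by a log2 fold change of 1.26 (limma SE 0.14 and adjusted p = 2.58e-04), from 37.4 ± 7.75 to 89.5 ± 5.97 TPM (SD, n = 3 each). It also rose in Sham versus Intact by 0.60 on the log2 scale (adjusted p = 0.0292 from limma), a call that was lost without Intact replicate 1 or 2, Sham replicate 1 or 2, or pMx replicate 1 (adjusted p from limma up to 0.0987), and in the fit on the 6 Sham and Intact libraries alone (adjusted p = 0.0859 from limma). It held in 13 of 19 alternative analyses. From Intact to pMx the rise was 1.85 on the log2 scale (adjusted p = 1.47e-05 from limma).

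The signaling receptor Igf1r (gene identifier 25718) was far lower, at 7.24, 8.02 and 5.56 TPM in Intact, 5.37, 5.38 and 5.25 TPM in Sham and 4.2, 4.09 and 4.26 TPM in pMx. The groups did not overlap. The Sham and pMx replicates were close together, with coefficients of variation of 1.36% and 2.06%, and those of Intact were spread over 18.1%. The log2 difference in pMx versus Sham was -0.29 (95% interval -0.57 to -0.01, adjusted p = 0.0962 from limma). That of Sham versus Intact was -0.31 (95% interval -0.59 to -0.04, adjusted p = 0.129 from limma). All 9 libraries shared 1 estimate of the spread, and without Intact replicate 3 both passed the limma test (adjusted p = 0.0172 for pMx versus Sham, and a log2 difference of -0.44 with adjusted p = 0.0139 for Sham versus Intact). Igf1r passed in 3 of 19 alternative analyses of pMx versus Sham and in 1 of 19 of Sham versus Intact. Igf1r fell in pMx versus Intact by 0.60 on the log2 scale (adjusted p = 0.00325 from limma). The ratio of Igf2r to Igf1r TPM was 3.17 to 4.08 in Intact, 5.45 to 8.02 in Sham and 20.1 to 23.6 in pMx.

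The upstream regions of the receptor genes and of Igfbp5, which had the largest fall, are shown. In pMx versus Sham, Igf2r rose and Igfbp5 fell, and Igf1r did not pass the test. Each run is the 250 bases before the transcription start on the gene's own strand, from RefSeq on the rat build GRCr8, and all 10 genes were matched in that table. Igf2r lies at chr1:50526628-50526877 (plus strand), Igf1r at chr1:130959747-130959996 (plus strand) and Igfbp5 at chr9:81914188-81914437 (minus strand). Capitals mark matches on either strand to any of 6 motifs. These were the TATA box TATAAA, the GC box GGGCGG, the CCAAT box, the E-box CACGTG, the AP-1 motif TGANTCA and a longer form of the E-box, GTCACGTGAC. The longer form holds the E-box within it and was taken from the Igf2r window after that had been read.
Igf2r: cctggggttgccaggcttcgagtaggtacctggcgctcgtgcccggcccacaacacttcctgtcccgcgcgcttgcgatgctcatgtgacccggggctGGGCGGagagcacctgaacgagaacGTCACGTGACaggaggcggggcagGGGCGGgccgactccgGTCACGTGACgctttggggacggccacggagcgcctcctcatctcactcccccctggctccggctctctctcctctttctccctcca
Igf1r: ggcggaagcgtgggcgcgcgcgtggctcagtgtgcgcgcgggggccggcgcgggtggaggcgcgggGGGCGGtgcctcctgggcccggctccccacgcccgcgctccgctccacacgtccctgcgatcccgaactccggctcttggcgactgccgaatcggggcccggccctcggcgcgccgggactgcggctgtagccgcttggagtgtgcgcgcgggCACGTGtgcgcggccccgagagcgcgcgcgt
Igfbp5: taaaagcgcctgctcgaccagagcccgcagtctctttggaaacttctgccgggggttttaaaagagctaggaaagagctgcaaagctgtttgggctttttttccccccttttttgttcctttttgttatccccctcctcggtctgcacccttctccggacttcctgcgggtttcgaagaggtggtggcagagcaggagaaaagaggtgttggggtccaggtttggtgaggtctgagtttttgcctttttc
The Igf2r window held GTCACGTGAC at bases 127 to 118 and again at bases 87 to 78 before the start, and GGGCGG at bases 152 to 147 and 103 to 98. This 10-letter palindrome is known as a form of the CLEAR element found upstream of many lysosomal genes. Of 33469 windows of the same length in the RefSeq table, 0.203% held GTCACGTGAC and 3 windows held it at least 2 times, those of Igf2r, Ap5z1 and Sgo1. The Igf1r window held CACGTG at bases 31 to 26 before the start without the flanking letters, and GGGCGG at bases 184 to 179. CACGTG was present in 5.59% of all windows and GGGCGG in 30.5%. The Igfbp5 window held none of the 6 motifs. CG dinucleotides numbered 23 in the Igf2r window, 45 in the Igf1r window and 8 in the Igfbp5 window, against a median of 5 over all windows. These are matches of letters, and no binding was measured.

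The binding proteins made up most of the TPM of the 10 genes, and Igfbp7, Igfbp6, Igfbp5 and Igfbp4 were above both ligands in all Intact and Sham libraries. Igfbp5 (gene identifier 25285), which binds to matrix and cell surfaces as well as to IGFs, was at 926.12, 1023.56 and 792.87 TPM in Intact, at 789.33, 755.77 and 842.89 TPM in Sham and at 197.94, 201.6 and 181.7 TPM in pMx. Intact and Sham overlapped, and every pMx library was far below them. The fall in pMx versus Sham had a log2 fold change of -2.03 (limma SE 0.10 and adjusted p = 1.09e-05), the largest of the 10 genes, from 796 ± 43.9 to 194 ± 10.6 TPM (SD, n = 3 each). It took rank 23 by p-value among the 16512 genes tested. In Sham versus Intact the log2 difference was -0.19 (95% interval -0.42 to 0.03, adjusted p = 0.235 from limma). Without Intact replicate 3 it was -0.29 and passed (adjusted p = 0.0333 from limma), the 1 of 19 alternative analyses in which it did.

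Igfbp6 (gene identifier 25641), which prefers IGF2 to IGF1, was at 1101.17, 877.38 and 653.28 TPM in Intact, at 1303.79, 1203.11 and 1537.5 TPM in Sham and at 527.09, 608.18 and 551.46 TPM in pMx. Sham was highest and pMx lowest, and the 3 groups did not overlap. Igfbp6 fell in pMx versus Sham by a log2 fold change of -1.26 (limma SE 0.18 and adjusted p = 8.93e-04), from 1348.1 ± 172 to 562 ± 41.6 TPM (SD, n = 3 each). Between Sham and Intact the log2 difference of 0.64 narrowly missed the test (95% interval 0.23 to 1.05, adjusted p = 0.0505 from limma), which it passed in 5 of 19 alternative analyses. From Intact to pMx it fell by 0.61 on the log2 scale (adjusted p = 0.0201 from limma), a call that was lost without Intact replicate 1 or 2, or pMx replicate 1 or 3 (adjusted p from limma up to 0.0665).

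Igfbp3 (gene identifier 24484), the main carrier of IGFs in blood, rose where Igfbp5 and Igfbp6 fell. It was at 57.61, 68.59 and 49.11 TPM in Intact, at 45.37, 54.42 and 50.87 TPM in Sham and at 93.89, 87.29 and 89.39 TPM in pMx. Intact and Sham overlapped and pMx was above both. The rise in pMx versus Sham had a log2 fold change of 0.84 (limma SE 0.12 and adjusted p = 7.96e-04), below the DEG threshold, from 50.2 ± 4.56 to 90.2 ± 3.37 TPM (SD, n = 3 each). In Sham versus Intact the log2 difference was -0.21 (95% interval -0.47 to 0.06, adjusted p = 0.29 from limma).

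Igfbp7 (gene identifier 289560), which binds IGFs weakly and is prominent in vessel walls, had the highest mean of the 10 genes in each group. It was at 1926.76, 1932.3 and 1315.45 TPM in Intact, at 1426.21, 1525.06 and 1381.23 TPM in Sham and at 1010.41, 1119.35 and 1221.71 TPM in pMx. Sham and pMx did not overlap, and Intact replicate 3 was below all Sham libraries. The log2 difference in pMx versus Sham was -0.37 (95% interval -0.72 to -0.02, adjusted p = 0.0905 from limma). That of Sham versus Intact was -0.23 (95% interval -0.58 to 0.12, adjusted p = 0.359 from limma). Without Intact replicate 3 both passed the limma test (adjusted p = 0.00645 for pMx versus Sham, and a log2 difference of -0.42 with adjusted p = 0.0192 for Sham versus Intact), in 3 of 19 and 1 of 19 alternative analyses in all. Igfbp7 fell in pMx versus Intact by 0.61 on the log2 scale (adjusted p = 0.01 from limma).

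Igfbp4 (gene identifier 360622), a substrate of a pappalysin protease, was at 511.44, 549.01 and 420.04 TPM in Intact, at 379.65, 439.85 and 405.59 TPM in Sham and at 350.01, 421.43 and 401.67 TPM in pMx. All 3 groups overlapped with each other. The log2 difference in pMx versus Sham was -0.06 (95% interval -0.33 to 0.20, adjusted p = 0.712 from limma). In pMx versus Intact Igfbp4 fell by 0.33 on the log2 scale (adjusted p = 0.0395 from limma), a call that held in 12 of 19 alternative analyses. It was lost without Intact replicate 1 or 2, Sham replicate 1 or 3, or pMx replicate 1 or 3 (adjusted p from limma up to 0.137). Of the 10 settings other than leaving out a library, it held in 9 (adjusted p from limma up to 0.0723).
Igfbp2 (gene identifier 25662), abundant in fetal tissues, was the lowest, at 0.39 to 1.96 TPM in Intact, 0.58 to 0.99 TPM in Sham and 0.73 to 1.68 TPM in pMx. Its groups overlapped, and its log2 difference in pMx versus Sham was 0.32 (95% interval -0.31 to 0.95, adjusted p = 0.406 from limma), on a scale that understates changes near 1 TPM.

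**Figure D2:**
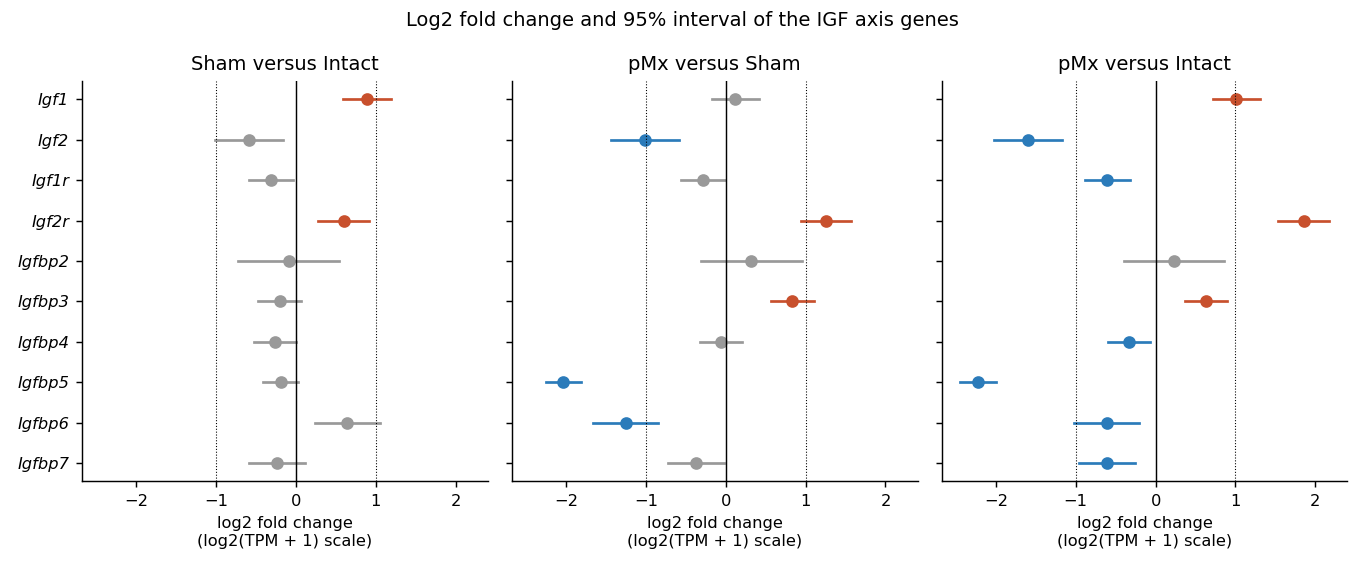
Log2 fold change on the log2(TPM + 1) scale (x axis, point) with its 95% interval from limma (line) for the 10 genes (y axis) in each comparison. Red marks genes higher and blue genes lower at an adjusted p below 0.05, gray marks the others, and dotted lines mark the DEG threshold of 1. Igfbp5 lies at -2.03 and Igf2r at 1.26 in pMx versus Sham.

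The 6 binding proteins together took up 4523.5, 4451.5 and 3232.7 TPM in the Intact libraries, 3944.9, 3979 and 4219.1 TPM in the Sham libraries and 2181, 2439.2 and 2446.7 TPM in the pMx libraries. The pMx sum was thus below that of every other library, and Intact replicate 3 was the lowest of the rest. Igfbp5 gave 22.7% ± 2.05 of this sum in Intact, 19.7% ± 0.577 in Sham and 8.26% ± 0.825 in pMx (SD, n = 3 each). Igfbp6 gave 21.4%, 33.2% and 23.9% on average in the same order, and Igfbp7 gave 42.2%, 35.7% and 47.4%. Igfbp3 gave 1.44%, 1.24% and 3.85%. Against the summed TPM of Igf1 and Igf2, the binding proteins stood at 21.6 to 28.4 times in Intact, 16.1 to 18.8 times in Sham and 9.53 to 11.8 times in pMx.

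**Figure D3:**
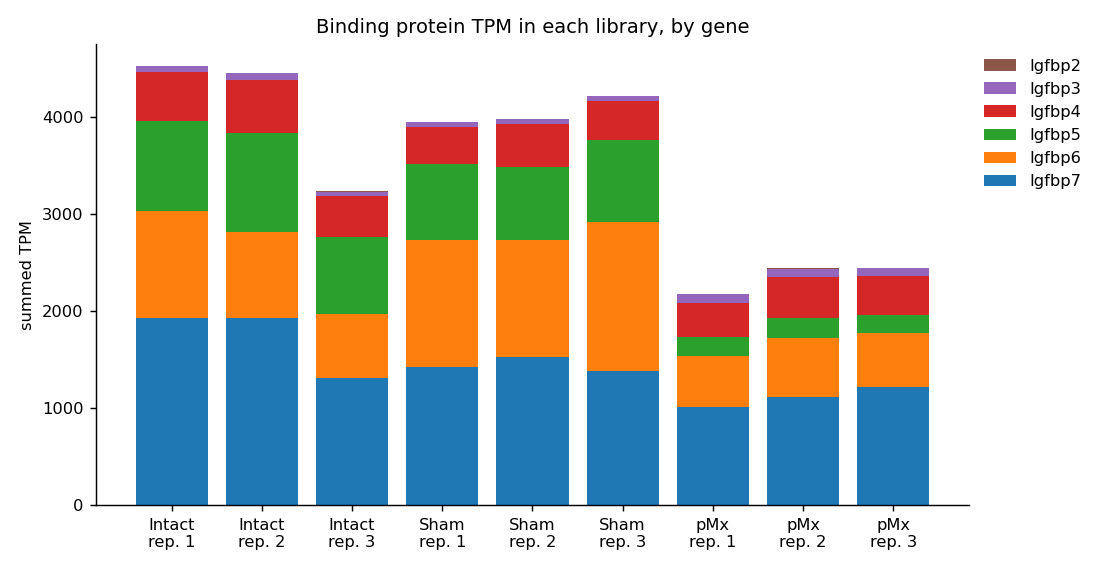
Summed TPM of the 6 binding proteins (y axis) in each of the 9 libraries (x axis), stacked by gene. The pMx bars reach 2181 to 2446.7 TPM and the others 3232.7 to 4523.5 TPM, and the green part, Igfbp5, narrows from between 755.77 and 1023.56 TPM to between 181.7 and 201.6 TPM.

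**Figure D4:**
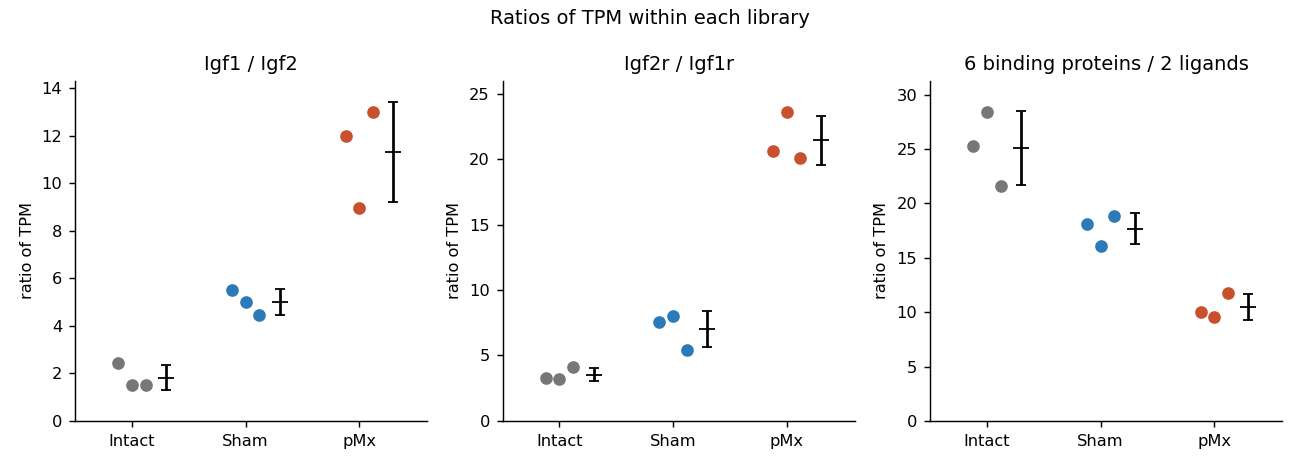
Ratio of TPM within each library (y axis, starting at 0) for Igf1 over Igf2, Igf2r over Igf1r, and the 6 binding proteins over both ligands, by group (x axis). Points are libraries, replicates 1 to 3 from left to right, and bars are the mean and SD of 3; the groups do not overlap in any panel, with Igf1 over Igf2 at 1.5 to 2.42, 4.44 to 5.52 and 8.96 to 13.

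The order of the 10 levels differed between groups. In Intact it ran from Igfbp7 through Igfbp5, Igfbp6, Igfbp4, Igf1, Igfbp3, Igf2, Igf2r and Igf1r to Igfbp2, and the ranges of Igfbp5 and Igfbp6 and those of Igfbp3 and Igf2 overlapped. In Sham, Igfbp6 stood above Igfbp5 and its range overlapped with that of Igfbp7, as did the ranges of Igf2 and Igf2r. In pMx the order was Igfbp7, Igfbp6, Igfbp4, Igf1, Igfbp5, Igfbp3, Igf2r, Igf2, Igf1r and Igfbp2, and the ranges of Igf1 and Igfbp5 and those of Igfbp3 and Igf2r overlapped. Overlap was judged on the ranges across libraries, which does not compare genes within a library. In pMx, Igf1 was above Igfbp5 in each library although their ranges overlapped.

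The tissue that was sampled also differed in markers of other cell types, and in bulk RNA fewer cells of a type cannot be told apart from less RNA per cell. Over all genes tested, 17.7% rose and 18.9% fell in pMx versus Sham, the shares to set beside the marker counts here. In that comparison all 8 adipocyte markers fell, from a sum of 4534.4 to 4884.1 TPM to one of 346 to 529 TPM. Of the Schwann cell markers 7 of 8 fell, from sums of 640 to 779 TPM to sums of 293 to 308 TPM. Of the mural and smooth muscle markers 4 of 8 fell and 1 rose (3571 to 4312 TPM against 2195.8 to 2565.2 TPM), and of the endothelial markers 4 of 8 fell (758 to 802 TPM against 585 to 744 TPM). Of the synovial fibroblast markers 3 rose and 1 fell, and of the chondrocyte markers 4 rose and 1 fell (520 to 605 TPM against 980 to 1187.2 TPM). Most of the chondrocyte sum was Comp, at 512 ± 48.3 TPM in Sham and 840 ± 80.9 TPM in pMx (SD, n = 3 each). Comp did not pass the test (adjusted p = 0.0865 from limma). Of the macrophage markers 1 rose and 3 fell (1976 to 2024.9 TPM against 1245.1 to 1762.6 TPM). No marker was at 0 in every library. The part of these cell types in the IGF results was not tested.

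Among genes that cut the binding proteins, or hold such proteases back, 8 of the 10 listed were tested. In pMx versus Sham 2 rose and 2 fell, against 17.7% higher and 18.9% lower of all genes tested, with a median log2 fold change of -0.06 against -0.01 over all genes. A count this near to the share of all genes is no result about the list. Adam12, a protease that cleaves IGFBP3 and IGFBP5, was at 1.95 to 2.78 TPM in Intact, 20.44, 25.35 and 10.8 TPM in Sham and 121.32, 121.53 and 117.96 TPM in pMx. It rose in both steps, by log2 fold changes of 2.54 in Sham versus Intact and 2.69 in pMx versus Sham (adjusted p = 0.00239 and 1.34e-04 from limma). Htra1, a serine protease that also cuts IGFBP5, was at 904 ± 49.5 TPM in Sham and 1566.4 ± 147 TPM in pMx (SD, n = 3 in both groups), a rise of 0.79 on the log2 scale. Pappa2, which cleaves IGFBP3 and IGFBP5, went from 12.3 ± 3.44 TPM in Intact to 3.67 ± 0.594 TPM in Sham and 1.54 ± 0.843 TPM in pMx (SD, n = 3 each), and fell in both steps (log2 fold changes -1.48 and -0.92). The second value is understated by the log2(TPM + 1) scale, as the ratio of mean TPM in pMx over Sham was 0.421. Stc2, an inhibitor of pappalysins, fell as well, by 0.97 on the log2 scale in Sham versus Intact and by 1.05 in pMx versus Sham. Htra3, of the same family as Htra1, rose in Sham versus Intact by 0.89 on the log2 scale. Pappa itself was not analysed here.

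In the growth hormone pathway, which drives Igf1 transcription in liver and other tissues, 2 of 7 genes rose and 3 fell in pMx versus Sham, against 17.7% and 18.9% of all genes, with a median log2 fold change of -0.30. Ghr, the growth hormone receptor, was at 117.76, 79.58 and 58.86 TPM in Intact, at 103.54, 115.66 and 96.32 TPM in Sham and at 19.24, 22.74 and 19.34 TPM in pMx. Its log2 fold change in pMx versus Sham was -2.31 (limma SE 0.21 and adjusted p = 1.19e-04), and Igf1 in the same libraries did not pass the test. Socs2, a feedback inhibitor and target of this pathway, fell by 0.86 and the signal carrier Stat5b fell by 0.69 on the log2 scale. Socs3, an inhibitor of cytokine receptors, and the kinase gene Jak2 rose by 1.03 and 0.71. Between Sham and Intact, Socs2, Cish and Stat5b fell, by 0.56, 0.53 and 0.44.

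Of 10 adaptor and feedback genes at the receptor, 3 rose and 3 fell in pMx versus Sham, against 17.7% and 18.9% of all genes, with a median log2 fold change of 0.03. Grb10, an imprinted inhibitor of IGF1 and insulin receptor signaling, was at 38.12 to 41.5 TPM in Intact, 55.01 to 67.79 TPM in Sham and 115.48 to 133.08 TPM in pMx (log2 fold changes 0.59 in Sham versus Intact and 1.02 in pMx versus Sham, adjusted p = 0.00625 and 7.65e-05 from limma). Grb14, a related inhibitor, fell in the same steps, by 0.77 and 0.79 on the log2 scale, to 7.15 ± 0.57 TPM in pMx (SD, n = 3). Shc1, an adaptor toward the MAP kinases, rose by 0.51 and Irs3 fell by 0.90 in pMx versus Sham. Of the 20 genes of the PI3K, AKT and mTOR route, 4 rose and 5 fell, near the 17.7% and 18.9% of all genes, and none passed the DEG threshold. The largest of these were the falls of Akt2, an AKT kinase, and Foxo1, a transcription factor that AKT keeps out of the nucleus, by 0.68 and 0.53 on the log2 scale. Foxo1 also fell in Sham versus Intact, by 0.68. It was the 1 gene of the 20 that passed there, against 12.7% of all genes tested (6.73% higher and 5.97% lower). Among other ligands, receptors and carriers, 1 of 5 genes tested fell in pMx versus Sham and none rose, against the same shares of all genes. It was Igfals, which stayed at or below 1.02 TPM in every library. The insulin receptor gene Insr, named after its values were seen, was at 6.64 to 8.31 TPM throughout and passed the test in none of the 3 comparisons.

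In a mixed list of Igf2 RNA-binding protein genes, imprinted genes and Hmga2, 5 of 8 tested rose and none fell in pMx versus Sham. This stood against 17.7% and 18.9% of all genes, with a median log2 fold change of 0.78 against -0.01 over all genes. Mest, an imprinted gene expressed from the paternal copy as Igf2 is, was at 42.21, 18.9 and 14.29 TPM in Intact, 69.01, 79.76 and 43.19 TPM in Sham and 276.33, 253.48 and 227.53 TPM in pMx. It rose by 2.00 on the log2 scale in pMx versus Sham (limma SE 0.37 and adjusted p = 0.00308), while Igf2 fell. Cdkn1c, an imprinted cell cycle inhibitor, rose by 1.99 in Sham versus Intact and by 0.80 in pMx versus Sham, to 88.8 ± 8.59 TPM (SD, n = 3). Plagl1, a transcription factor of the imprinted network, rose by 0.46 and 0.77. Hmga2, a chromatin protein of fetal tissue, rose by 1.09 in pMx versus Sham but reached at most 2.23 TPM. Igf2bp3, which binds Igf2 RNA and is named here as the last of the 5 after its values were seen, rose by 0.49 and reached at most 0.84 TPM. The log2(TPM + 1) scale understates changes at such low levels. The ratio of mean TPM in pMx over Sham was 4.4 for Hmga2 and 3.61 for Igf2bp3.

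The CCN genes encode matrix proteins with an IGFBP-like domain. In pMx versus Sham 2 of 6 rose and 2 fell, against 17.7% and 18.9% of all genes, with a median log2 fold change of 0.21. Ccn4 was at 3.24 to 3.74 TPM in Intact, 9.45 to 17.46 TPM in Sham and 70.49 to 76.16 TPM in pMx, and rose by log2 fold changes of 1.74 and 2.30. Ccn2, also called connective tissue growth factor, went from 1355.1 ± 229 TPM in Intact to 654 ± 108 TPM in Sham and 257 ± 23.5 TPM in pMx (SD, n = 3 each), falling by 1.05 and then 1.34 on the log2 scale. Ccn3 fell by 2.34 in pMx versus Sham, to 37.89 to 53.9 TPM. Ccn5 rose by 1.47 in Sham versus Intact and by 0.46 in pMx versus Sham.

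**Figure D5:**
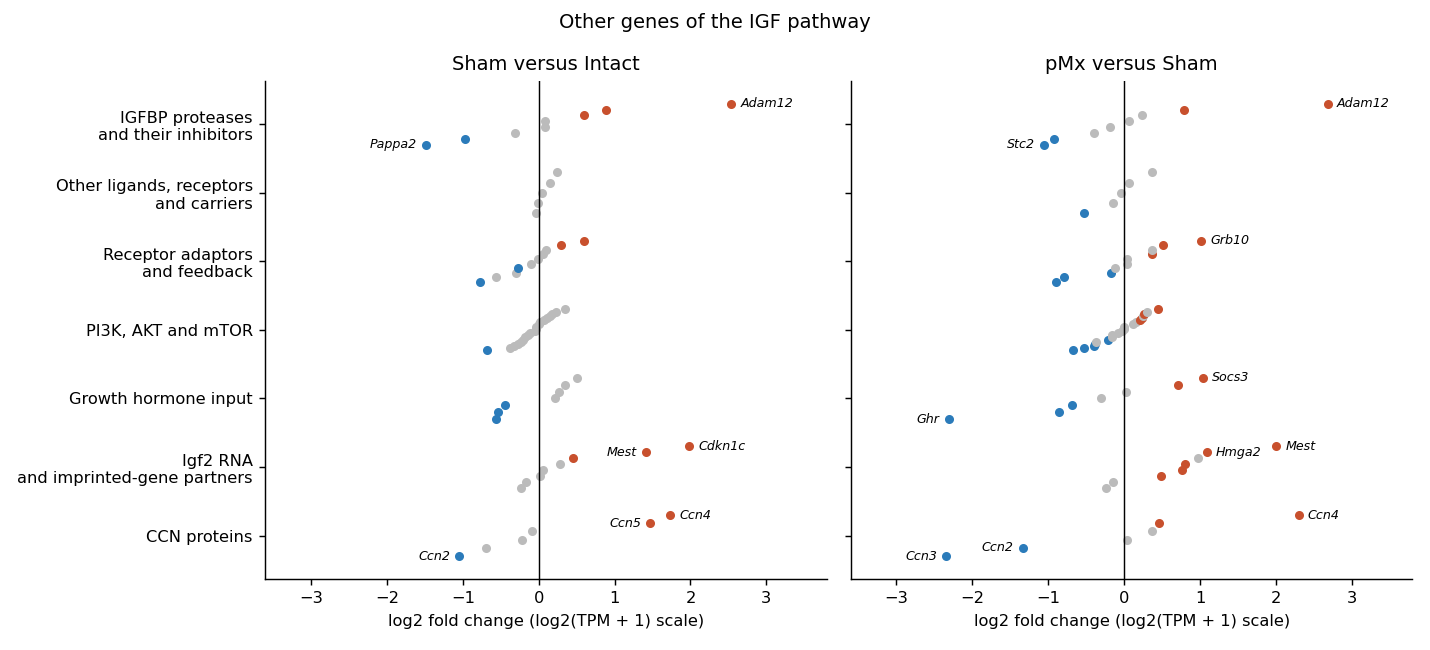
Log2 fold change on the log2(TPM + 1) scale (x axis) of the other genes of the IGF pathway, grouped by list (y axis), in Sham versus Intact and pMx versus Sham. Each point is a gene, red where higher and blue where lower at an adjusted p below 0.05 and gray otherwise, with DEGs named; Adam12 lies at 2.54 and 2.69 and Ghr at -2.31 in pMx versus Sham.

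Profiles over the 9 libraries were compared with those of 13201 genes with a mean of at least 1 TPM. Pearson correlations of log2(TPM + 1) are given as descriptions, since they rest on 9 points in 3 groups that share their tissue. Igf1 was most like Rnaset2 (0.991) and Fcer1g (0.989), which also stood higher in Sham and pMx than in Intact. Fcer1g, a signaling chain of antibody receptors on myeloid cells, was at 194 ± 34, 362 ± 28 and 370 ± 15.3 TPM in Intact, Sham and pMx (SD, n = 3 each). Igf2 was most like Dusp3 (0.989), Igf1r most like Bcl2l1 (0.992) and Igf2r most like Uchl1 (0.998) and Igsf3 (0.998). Uchl1, a ubiquitin hydrolase, went from 4.26 ± 0.815 TPM in Intact to 11 ± 3.71 TPM in Sham and 56.6 ± 3.43 TPM in pMx (SD, n = 3 each). Igfbp5 was most like LOC103689947 (0.999) and Rcan2 (0.998). Rcan2, an inhibitor of calcineurin, was at 29.8 ± 4.03, 26.9 ± 3.1 and 3.09 ± 0.627 TPM in Intact, Sham and pMx (SD, n = 3 each). The other binding proteins were most like Rusc1 (0.993) for Igfbp3, Ehd4 (0.988) for Igfbp7, Kctd2 (0.985) for Igfbp4, Vat1 (0.985) for Igfbp6 and Uckl1 (0.955) for Igfbp2.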

How the data were processed

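RNA from 9 libraries was sequenced by BGI, with 3 libraries each of Intact, Sham and pMx grouped by their titles. The authors deposited TPM values, from analysis in BGI's Dr. Tom system. The submitters' processing notes name HISAT2 2.0.4 and the build mRatBN7.2. The counting tool and annotation are not given in the sources used here. TPM has a fixed total, so a large rise in some genes lowers the values of others. From the deposited TPM, log2(TPM + 1) of 16512 genes, each with a value above 0 in 3 or more libraries, was fitted in limma 3.58.1 (R 4.3.3), with 1 mean per group, a mean-variance trend and Benjamini-Hochberg adjustment over all genes tested. DEGs met both cutoffs, 0.05 for the adjusted p and 1 for the size of the log2 fold change. The fit was tested on simulated data. Sums, ratios and correlations were computed in pandas 2.3.3 and NumPy 2.4.6, and figures in Matplotlib 3.10.9.

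The genes, lists and tests were chosen with earlier results of these data known. Named genes were the 10 IGF genes, up to 4 called genes per list and comparison with the largest change, and the 2 genes most like each of the 10 over the libraries, of which the first is always given. Alternatives were pseudocounts of 0.1 and 0.01, a mean of at least 1 TPM, no filter, median-of-ratios and quantile scaling, a fit on 6 libraries, variance moderation without its trend or made robust, a block for the replicate number, an adjusted p below 0.01 and leaving out each library. Promoters and gene order came from RefSeq on GRCr8. Pappa, Ins1, Irs4 and H19 were not analysed here.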

Additional observations from a re-analysis of the deposited data

How the results depend on the processing

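Over 3 comparisons, the log2 fold changes of the 10 genes were computed 570 times under alternatives, and 533 kept their direction and their side of the threshold. In pMx versus Sham, Igfbp5, Igfbp6, Igf2r, Igfbp3 and Igf2 passed the test in all 19 alternatives. The number of the 10 genes called in pMx versus Sham was 5 to 7, and the number of DEGs 3 to 4. Over all genes, the alternatives called 3763 to 7482 there and gave 1221 to 2303 DEGs. In Sham versus Intact, 2 were called, 1 with an adjusted p below 0.01, and 1 to 6 with each library left out. It was 6 without Intact replicate 3, and 1 (Igf1) without Intact replicate 2, Sham replicate 1, Sham replicate 2 or pMx replicate 1. All genes called there numbered 2097, 420 with an adjusted p below 0.01, and 628 to 2969 with each library left out. None of the 10 was a DEG there in limma (6 had an unadjusted p below 0.05, as did at least 4745 of the 16512 genes tested). With each library left out the number of DEGs among the 10 was 0 to 1, the 1 being Igf1 without Intact replicate 1. Over all genes it was 191 to 417. In pMx versus Intact, 9 were called, 6 with an adjusted p below 0.01 and 7 to 10 with a library left out. All genes called there numbered 8350, and 6067 to 8916 over the alternatives. Of the 10 genes 4 were DEGs there, and 3 without Intact replicate 2 or 3 or pMx replicate 2, the difference being Igf1. With each library left out, the log2 fold change of Igfbp4 in pMx versus Sham ran from -0.12 to 0.013, above 0 without pMx replicate 1, and that of Igfbp2 in Sham versus Intact from -0.31 to 0.23, above 0 without Intact replicate 3, and neither passed the test. The cause of these changes was not tested.

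The DEG counts over all genes were 1355, 323 and 2360 in pMx versus Sham, Sham versus Intact and pMx versus Intact. With pseudocounts of 0.1 and 0.01 the first 2 were 2229 and 2303, and 612 and 603, and the third was 3662 with 0.01. Sham versus Intact had 190 DEGs with an adjusted p below 0.01 and 191 without Sham replicate 2. Genes called numbered 6046 in pMx versus Sham (3763 with an adjusted p below 0.01) and 2097 in Sham versus Intact (420 with an adjusted p below 0.01, 687 in the fit on 6 libraries, 1091 without Intact replicate 2, 734 without Sham replicate 1 and 628 without Sham replicate 2).

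Same-numbered libraries deviated from their group means with correlations across genes of 0.035 to 0.485 in pMx versus Sham, of -0.493 to 0.002 in Sham versus Intact and of -0.664 to -0.378 in pMx versus Intact. Libraries with different numbers were at -0.47 to 0.305, -0.4 to 0.467 and -0.465 to 0.588 in the same order. Deviations from a mean of 3 depend on one another, so these values cannot decide whether the numbers pair the samples. No label states a pairing, and the main fit used none. With the replicate number as a block, 5, 2 and 9 of the 10 genes were called and 4, 0 and 4 were DEGs, and all 30 calls were the same.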

Other observations

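In the RefSeq gene order of GRCr8, Igfbp2 and Igfbp5 are neighboring coding genes on chromosome 9, and Igfbp1 and Igfbp3 on chromosome 14. The neighbors were at very different levels. Igfbp5 was at 796 ± 43.9 TPM and Igfbp2 at 0.787 ± 0.205 TPM in Sham (SD, n = 3 each). Igfbp1, which the liver secretes, had a listed value of 0 TPM everywhere except in 2 pMx libraries. It was at 0.18 and 0.09 TPM in pMx replicates 2 and 3, so it was not among the genes tested. Igfbp3 in the same pMx libraries was at 87.29 and 89.39 TPM.

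The ratio of Igf2r to Igf2 TPM, the sorting receptor against the ligand that it clears, was 0.381 to 0.459 in Intact, 0.695 to 1.21 in Sham and 3.75 to 5.78 in pMx. Igf2r was thus below Igf2 in all Intact libraries and above it in all pMx libraries.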
